A study of Mus musculus with 24 samples.

Results

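The CaM kinases and calmodulin signalling genes described here are *Camk2a*, *Camk2b*, *Camk2d*, *Camk2g*, *Camk4*, *Camkk1*, *Camkk2*, *Nrgn* and *Ppp3ca*. They were chosen by name, as components of this pathway, with earlier results of these data known. Each was looked up as a region of H3K4me3 signal that overlaps an annotated transcription start site (TSS) of the gene. All 9 genes have such a region, 1 region each, out of 14806 genes with a TSS in any region and 17993 regions in all.

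The study tagged chromatin with the FLAG-tagged histone H2B, purified it from cerebral cortex of C57BL/6 mice with an anti-FLAG antibody, and then immunoprecipitated H3K4me3 from the purified fraction (tChIP-Seq). H3K4me3 was also immunoprecipitated without that purification (single ChIP-Seq). With 2 mouse lines, this gives 4 groups of 3 libraries, and each lysate pools tissue of 2 animals. In the *Rosa* H2B-FLAG line (genotype Rosa CAG-H2B-FLAG), recombination by *Vasa*-Cre in the germ line leaves the tag in nearly all cells. In the *Camk2a* H2B-FLAG line (Rosa26 CAG-floxed-pA-H2B-FLAG/ CaMKCreERT2), the tag needs tamoxifen-inducible Cre under a *Camk2a* promoter; males of 8 weeks received 1 mg of tamoxifen per day for 5 days and were sacrificed about a month afterwards. Cortex was taken from adults, and the methods mention no tamoxifen, sex or exact age for the *Rosa* H2B-FLAG animals. The Cre driver, the cells that carry the tag and, if only 1 line received it, tamoxifen therefore change together between the lines and cannot be told apart.

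Calcium that enters a neuron through NMDA receptors and voltage-gated channels binds calmodulin, and calcium-bound calmodulin switches on the enzymes described here. CaMKII, a holoenzyme of α, β, γ and δ subunits, phosphorylates synaptic targets and is needed for long-term potentiation. CaM kinase kinases phosphorylate CaM kinase I and CaM kinase IV, and CaM kinase IV acts on CREB in the nucleus. Calcineurin is the phosphatase that opposes these kinases, and neurogranin holds calmodulin near the membrane while calcium is low. H3K4me3 marks promoters that are active or poised, so the values below describe chromatin at the 5′ ends of these genes and not their RNA or protein.

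Levels are given as CPM (counts per 1e6 of the library) after TMM scaling, and differences as log2 fold changes with their standard error (SE). A region is called when its adjusted p from edgeR, corrected over all 17993 regions, is below 0.01. Total counts were 7104660, 8644574 and 6316125 in single ChIP-Seq of *Rosa* H2B-FLAG mice and 4125767, 4233144 and 4063200 in that of *Camk2a* H2B-FLAG mice. In tChIP-Seq they were 1828371, 1607389 and 1457261 for *Rosa* H2B-FLAG and 3049130, 2778331 and 2709729 for *Camk2a* H2B-FLAG. The *Rosa* H2B-FLAG tChIP-Seq libraries are thus the shallowest. Libraries are listed as replicates 1, 2 and 3 throughout.

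In tChIP-Seq, 6 of the 9 genes were called higher in *Camk2a* H2B-FLAG than in *Rosa* H2B-FLAG mice, where 17.0% of all regions were called higher. None was called lower by edgeR (0 of 9, against 14.6% of all regions); 1 was lower at an unadjusted p below 0.05, and DESeq2 called 5 higher and 0 lower. The median log2 fold change was 0.54 over the 9 genes. In single ChIP-Seq of the same lines, 1 gene (*Camk2a*) was called higher, against 0.928% of all regions, and edgeR called 0 lower, against 1.22%, with 2 lower at an unadjusted p below 0.05 and 0 by DESeq2. Here the median of the 9 genes was -0.04. *Camk2a* was thus the only one of the 9 genes with a called difference between the lines in chromatin that had not been purified. In such bulk samples, fewer cells of a type and less of the mark per cell cannot be told apart.

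Purification went with calls in opposite directions in the 2 lines at 5 of the 9 genes (*Camk2a*, *Camk2b*, *Camk4*, *Camkk1* and *Nrgn*, each lower in *Rosa* H2B-FLAG and higher in *Camk2a* H2B-FLAG mice), against 4.74% of all regions with that pattern. With DESeq2 it was 4 genes, without *Camkk1*, against 3.58% of all regions. In *Rosa* H2B-FLAG mice, 7 genes were called lower after purification (7 by DESeq2), against 22.5% of all regions. No gene was called higher there by edgeR (0 of 9, against 24.7% of all regions), by DESeq2 (0) or at an unadjusted p below 0.05 (0). In *Camk2a* H2B-FLAG mice, 6 genes were called higher after purification, against 25.3% of all regions, and 2 lower, against 22.6%. DESeq2 called 4 higher and 2 lower there, and leaving out each library gave 4 to 6 higher. The difference between the line effect in tChIP-Seq and that in single ChIP-Seq (the interaction) was called above 0 for 7 genes (5 by DESeq2, 5 to 7 when each library was left out), against 13.7% of all regions. It was called below 0 for none by edgeR (0 of 9, against 13.2%) or DESeq2 (0), and for 1 gene at an unadjusted p below 0.05. These comparisons share libraries, so their counts are not independent of each other. The paper also saw differences between tChIP-Seq and single ChIP-Seq at particular loci in *Rosa* H2B-FLAG mice. As possible sources it proposes a bias towards longer DNA, the FLAG epitope or the tagged H2B itself. For that reason it compared mainly tChIP-Seq between the lines. Whether such bias has a part in the differences between the kinds of ChIP-Seq given here was not tested.

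**Figure D1:**
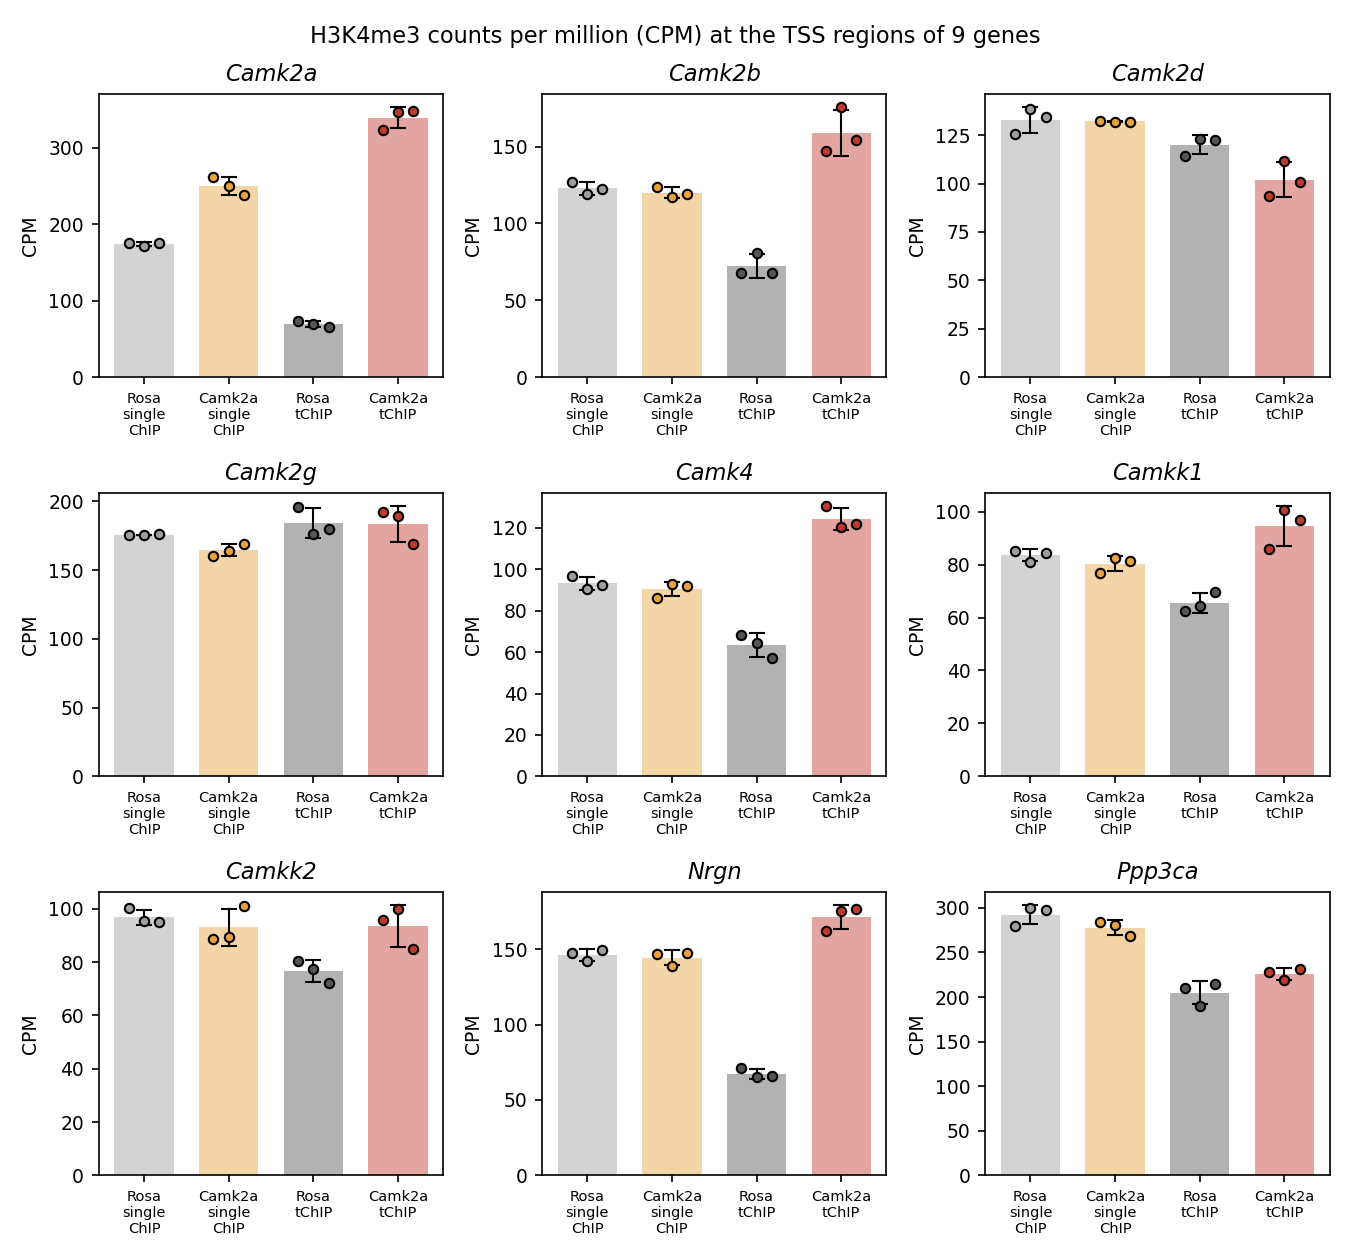
H3K4me3 level (CPM) at the promoter region of each of the 9 genes in all 12 libraries, by line and kind of ChIP-Seq.

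*Camk2a* encodes the α subunit of CaMKII, the main subunit of forebrain excitatory neurons. Its region (chr18:61084429-61090503 of mm9, plus strand) spans 6075 bp, is wider than 99.2% of all regions, and covers 4 of the 6 distinct TSSs of the gene. Of its length, 843 bp lie upstream of the gene, 301 bp in exons and 4931 bp in introns. tChIP-Seq of *Rosa* H2B-FLAG mice gave 74.1, 69.8 and 66.3 CPM, and that of *Camk2a* H2B-FLAG mice 323.5, 346.4 and 348.1. Every *Camk2a* H2B-FLAG library was above every *Rosa* H2B-FLAG library, and the difference (log2 fold change 2.27, SE 0.0685, adjusted p = 9.42e-44) was the 18th highest of all regions.

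Single ChIP-Seq of *Rosa* H2B-FLAG mice gave 175.4, 171.2 and 175.4 CPM at *Camk2a*, and single ChIP-Seq of *Camk2a* H2B-FLAG mice 262.2, 249.3 and 238. These groups did not overlap either, although nothing had been purified by FLAG (log2 fold change 0.52, SE 0.0384, adjusted p = 3.74e-27). After purification the region was lower in *Rosa* H2B-FLAG mice (-1.29, SE 0.0719, adjusted p = 3.74e-69), the 44th lowest value of all regions, and higher in *Camk2a* H2B-FLAG mice (0.44, SE 0.0416, adjusted p = 1.66e-19). *Camk2a* had the largest fall of the 9 genes in the first line. Its interaction was 1.74 (SE 0.0823, adjusted p = 1.33e-56), again the largest of the 9.

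*Camk2b*, the β subunit, binds actin and holds the holoenzyme in dendritic spines. Its region (chr11:5962772-5966372, minus strand) had 67.8, 81.1 and 67.6 CPM in tChIP-Seq of *Rosa* H2B-FLAG mice and 147.3, 175.7 and 154 in that of *Camk2a* H2B-FLAG mice. The groups did not overlap (log2 fold change 1.14, SE 0.0837, adjusted p = 9.9e-21). Single ChIP-Seq gave 126.9, 118.9 and 122.5 CPM in *Rosa* H2B-FLAG and 123.8, 117.2 and 119.4 in *Camk2a* H2B-FLAG mice. Here the libraries interleaved, and the difference was -0.03 with a 95% interval from -0.13 to 0.06 (adjusted p = 0.752). The line effect at *Camk2b* thus differed between the kinds of ChIP-Seq (interaction 1.17, SE 0.0961, adjusted p = 1.14e-25). After purification *Camk2b* differed by -0.75 (SE 0.0763, adjusted p = 2.07e-21) in the *Rosa* H2B-FLAG line and by 0.40 (SE 0.0573, adjusted p = 3.34e-10) in the *Camk2a* H2B-FLAG line.

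*Camk2d*, the δ subunit, is known as the main CaMKII of heart and is also made in brain. The tChIP-Seq libraries gave 114.3, 122.9 and 122.7 CPM in *Rosa* H2B-FLAG mice, against 93.8, 111.5 and 100.6 in the *Camk2a* H2B-FLAG line. The *Camk2a* H2B-FLAG libraries all lay below the others, opposite to *Camk2a* and *Camk2b*, but the difference was not called (log2 fold change -0.23, 95% interval -0.38 to -0.07, adjusted p = 0.0146). It was called when all 12 libraries entered 1 fit (adjusted p = 0.0093) and when replicate 2 of the *Camk2a* H2B-FLAG libraries was left out (-0.30, adjusted p = 0.00272), its 11 alternatives running from 0.00272 to 0.105. Single ChIP-Seq gave 125.4, 138.4 and 134.5 CPM against 132.4, 131.7 and 131.8, which overlap (-0.01, adjusted p = 0.897). Within the *Camk2a* H2B-FLAG line, *Camk2d* was lower after purification (-0.38, SE 0.0622, adjusted p = 4.85e-08), and in the *Rosa* H2B-FLAG line the value was -0.14 (adjusted p = 0.0492). The interaction of -0.22 was not called (adjusted p = 0.0455).

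*Camk2g*, the γ subunit, has been described as a carrier of calcium-bound calmodulin to the nucleus. Its region (chr14:21608978-21614022) had 196.2, 175.9 and 179.8 CPM in *Rosa* H2B-FLAG and 192.6, 189.5 and 168.7 in *Camk2a* H2B-FLAG tChIP-Seq. The libraries interleave, and the difference was 0.00 with a 95% interval from -0.12 to 0.12 (adjusted p = 0.995), so a difference of more than 0.12 in either direction lies outside that interval. Single ChIP-Seq gave 175.7, 175.5 and 175.9 CPM in *Rosa* H2B-FLAG and 160.5, 163.7 and 169.2 in *Camk2a* H2B-FLAG mice. These groups do not overlap, yet the difference of -0.10 was not called (adjusted p = 0.14). After purification in the *Camk2a* H2B-FLAG line *Camk2g* was called higher (0.16, SE 0.0516, adjusted p = 0.00455), but not with DESeq2 (adjusted p = 0.0555) or with single ChIP-Seq thinned to the depth of tChIP-Seq (0.0161). Nor was it called without replicate 1 (0.0275) or 2 (0.0158) of single ChIP-Seq or replicate 1 (0.0704) or 2 (0.0371) of tChIP-Seq, while all 12 alternatives ran from 0.000624 to 0.0704.

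*Camk2g* is also the only one of the 9 genes with a further region that overlaps the gene away from any TSS. This region, chr14:21552614-21554353, spans 1740 bp and lies 59.8 kb from the 5′ end of the gene, across its 3′ end, with most of its length beyond the gene. Mean levels there were 74 CPM in *Rosa* H2B-FLAG and 71 in *Camk2a* H2B-FLAG single ChIP-Seq, and 71 and 60.6 in tChIP-Seq. None of its 5 comparisons was called, the line difference in tChIP-Seq being -0.23 (adjusted p = 0.0575).

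Taken as shares of the counts in the 4 CaMKII regions, the balance of subunits shifted with line and purification. *Camk2a* held 16.4%, 15.5% and 15.2% of these counts in *Rosa* H2B-FLAG tChIP-Seq and 42.7%, 42.1% and 45.1% in *Camk2a* H2B-FLAG tChIP-Seq. *Camk2g* went the other way, with 43.4%, 39.1% and 41.2% against 25.4%, 23% and 21.9%. *Camk2g* therefore held the largest share in the first group and *Camk2a* in the second, with no overlap between libraries. These shares are not corrected for the width of the regions. Per kb, *Camk2g* (36.5 CPM) and *Camk2d* (35.8) overlapped in the first group. In single ChIP-Seq the shares of *Camk2a* were 29.1%, 28.3% and 28.8% in *Rosa* H2B-FLAG and 38.6%, 37.7% and 36.1% in *Camk2a* H2B-FLAG mice.

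Shares add up to the whole, so a rise of *Camk2a* lowers the others by arithmetic. Among the remaining 3 subunits alone, *Camk2b* held 17.9%, 21.4% and 18.3% in *Rosa* H2B-FLAG tChIP-Seq and 34%, 36.9% and 36.4% in *Camk2a* H2B-FLAG tChIP-Seq. *Camk2d* held 30.2%, 32.3% and 33.2% against 21.6%, 23.4% and 23.8%, and *Camk2g* 51.9%, 46.3% and 48.6% against 44.4%, 39.7% and 39.9%. The same arithmetic applies here, and only *Camk2b* of the 3 was called between these groups. The level of *Camk2g* did not differ (log2 fold change 0.00), so its lower share does not show a fall of its own. For *Camk2d* the level differed by -0.23, called only in some alternatives, and its lower share does not settle whether it fell. In single ChIP-Seq the mean shares of the 3 were nearly the same in both lines, 28.5% and 28.8% for *Camk2b*, 30.8% and 31.7% for *Camk2d*, and 40.7% and 39.5% for *Camk2g*. These shares are descriptions, and no test was made on them.

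*Camk4* encodes CaM kinase IV, which is concentrated in neuronal nuclei. Its region (chr18:33097822-33101080) also holds a TSS of *2310026I22Rik*, and the counts cannot be divided between the genes. tChIP-Seq gave 68.4, 64.4 and 57.1 CPM in *Rosa* H2B-FLAG mice, against 130.6, 120.5 and 121.9 in the *Camk2a* H2B-FLAG line. The groups stand well apart (log2 fold change 0.97, SE 0.0873, adjusted p = 1.88e-16). Single ChIP-Seq gave 96.9, 90.7 and 92.3 CPM against 86.4, 92.8 and 92.2, with overlap and no call (-0.04, adjusted p = 0.69). The interaction was 1.01 (SE 0.105, adjusted p = 1.07e-17), made up of a fall on purification in *Rosa* H2B-FLAG mice (-0.54, SE 0.084, adjusted p = 1.41e-09) and a rise in *Camk2a* H2B-FLAG mice (0.46, SE 0.064, adjusted p = 1.29e-10). At 0.46, *Camk4* had the largest rise of the 9 genes in that line, but *Camk2a* (0.44, SE 0.0416) differed from it by less than either SE.

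*Camkk1*, CaM kinase kinase α, shares its region (chr11:72831512-72834029) with a TSS of *4732414G09Rik*. The *Rosa* H2B-FLAG tChIP-Seq libraries held 62.6, 64.4 and 69.5 CPM and the *Camk2a* H2B-FLAG libraries 86, 100.7 and 96.9. The groups did not overlap (log2 fold change 0.54, SE 0.0932, adjusted p = 1.15e-06). Single ChIP-Seq held 85.2, 80.9 and 84.4 CPM against 77, 82.6 and 81.5, which overlap, and no difference was called (-0.05, adjusted p = 0.638). After purification *Camkk1* was lower in the *Rosa* H2B-FLAG line (-0.34, SE 0.0855, adjusted p = 0.000214). The rise in the *Camk2a* H2B-FLAG line (0.23, SE 0.0712, adjusted p = 0.00352) was lost with DESeq2 (0.0448) and without replicate 1 of single ChIP-Seq (0.0248) or replicate 2 (0.0546) or 3 (0.0215) of tChIP-Seq, the range over all 12 alternatives being 0.000965 to 0.0546. The interaction was 0.58 (SE 0.111, adjusted p = 2.26e-06).

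*Camkk2*, CaM kinase kinase β, also phosphorylates AMPK. Its region (chr5:123227887-123230151) had 80.4, 77.5 and 72.2 CPM in *Rosa* H2B-FLAG and 95.8, 100 and 84.7 in *Camk2a* H2B-FLAG tChIP-Seq, without overlap. The difference (log2 fold change 0.29, SE 0.0894, adjusted p = 0.00621) is the smallest of the 6 that were called. The call was lost with DESeq2 (adjusted p = 0.0467) and when replicate 1 (0.0232) or 2 (0.0472) of the *Camk2a* H2B-FLAG or replicate 2 (0.018) or 3 (0.0421) of the *Rosa* H2B-FLAG libraries was left out, and its 11 alternatives spanned 0.00193 to 0.0472. Single ChIP-Seq had 100.1, 95.2 and 95.1 CPM against 88.6, 89.5 and 100.9, which overlap (-0.06, adjusted p = 0.556).

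On purification, *Camkk2* fell in *Rosa* H2B-FLAG mice (-0.32, SE 0.0788, adjusted p = 0.00017) and had a value of 0.01 in *Camk2a* H2B-FLAG mice (adjusted p = 0.906). Its interaction of 0.34 (SE 0.105, adjusted p = 0.00563) was lost in 9 of 17 alternatives (adjusted p from 0.00136 to 0.0366 over all 17), among them DESeq2 (0.0172) and thinned single ChIP-Seq (0.0107). The libraries whose removal ended the call were, in the *Camk2a* H2B-FLAG line, replicates 1 (0.0197) and 2 (0.0165) of single ChIP-Seq and 1 (0.0164) and 2 (0.0366) of tChIP-Seq, and in the *Rosa* H2B-FLAG line replicate 1 of single ChIP-Seq (0.0143) and replicates 2 (0.0124) and 3 (0.0285) of tChIP-Seq. Both kinase kinases thus lie on the same side as *Camk4*, the kinase they act on, with smaller differences.

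*Nrgn* encodes neurogranin, a small protein of dendritic spines that binds calmodulin through an IQ motif when calcium is low. Its region (chr9:37355841-37360598, minus strand) spans 4758 bp and covers the single annotated start of the gene. tChIP-Seq gave 71, 65 and 65.6 CPM in *Rosa* H2B-FLAG mice, against 162.1, 175.4 and 176.4 in the *Camk2a* H2B-FLAG line. The groups do not overlap, and the difference (log2 fold change 1.35, SE 0.0801, adjusted p = 1.37e-25) came after that of *Camk2a* among the 9 genes. Single ChIP-Seq gave 147.7, 142 and 149.2 CPM against 146.5, 139.1 and 147.8, nearly the same values in the same range (-0.02, adjusted p = 0.859). The fall on purification in *Rosa* H2B-FLAG mice was -1.10 (SE 0.0755, adjusted p = 9.14e-46), the 93rd lowest of all regions, and the rise in *Camk2a* H2B-FLAG mice 0.24 (SE 0.0536, adjusted p = 3.5e-05). The interaction was 1.36 (SE 0.0929, adjusted p = 5.26e-34), second to *Camk2a*.

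*Ppp3ca* encodes the α catalytic subunit of calcineurin, which dephosphorylates NFAT in the cytoplasm. Its region (chr3:136331894-136338990) is 7097 bp long, wider than 99.8% of all regions. *Rosa* H2B-FLAG tChIP-Seq libraries had 209.8, 190.3 and 214.5 CPM and *Camk2a* H2B-FLAG libraries 227.7, 219 and 231.7. The groups lie next to each other without overlap, and the difference was not called (log2 fold change 0.15, 95% interval 0.04 to 0.26, adjusted p = 0.029). Single ChIP-Seq gave 280, 299.6 and 297.6 CPM against 284.1, 281.1 and 268.2, with overlap and no call (-0.08, adjusted p = 0.158). On purification *Ppp3ca* was called lower in both lines, the only one of the 9 genes with that pattern, at -0.50 (SE 0.0473, adjusted p = 1.2e-24) in *Rosa* H2B-FLAG and -0.30 (SE 0.0441, adjusted p = 1.55e-09) in *Camk2a* H2B-FLAG mice.

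The interaction at *Ppp3ca* was 0.22 (SE 0.0663, adjusted p = 0.00473). It was lost in 8 of 17 alternatives (adjusted p from 0.00149 to 0.0606 over all 17), among them DESeq2 (0.0175) and thinned single ChIP-Seq (0.0248). Removing any of 6 libraries ended it: in the *Camk2a* H2B-FLAG line, replicate 3 of single ChIP-Seq (0.0192) and replicates 1 (0.011) and 3 (0.0158) of tChIP-Seq, and in the *Rosa* H2B-FLAG line replicates 2 (0.0167) and 3 (0.0107) of single ChIP-Seq and 2 of tChIP-Seq (0.0606). At 0.22 it has the smallest log2 fold change of the 7 called interactions.

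**Figure D2:**
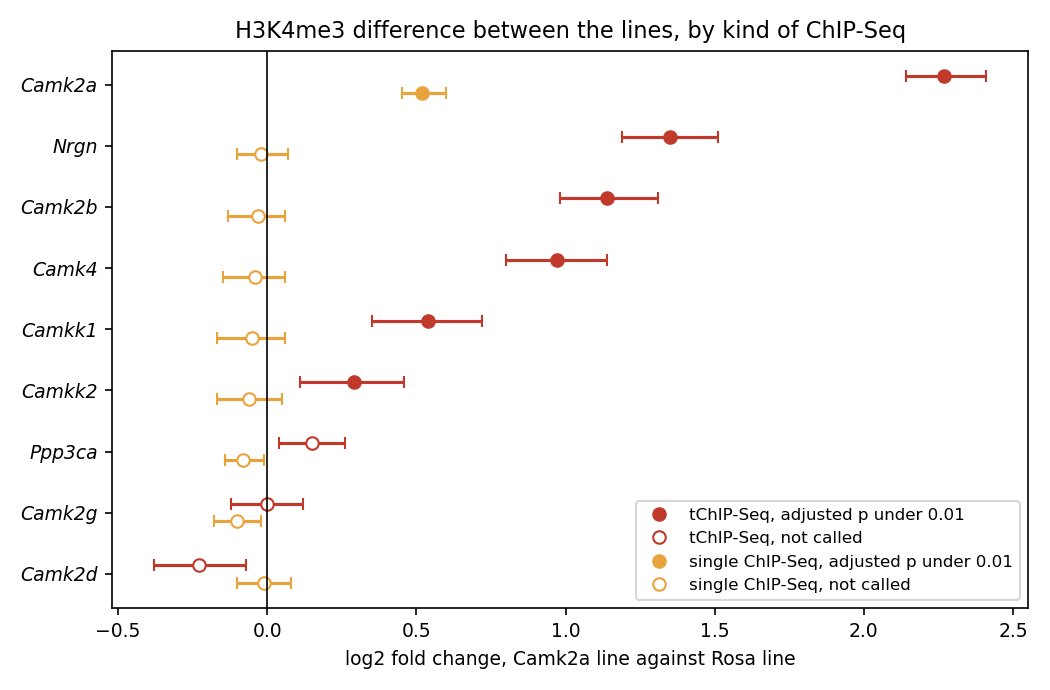
Log2 fold changes of the 9 genes between the lines, by kind of ChIP-Seq, with 95% intervals; filled symbols mark an adjusted p below 0.01.

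Levels of different genes were compared per kb of region, since the regions differ in width. In *Rosa* H2B-FLAG tChIP-Seq the order was *Camk2g* (36.5 CPM per kb), *Camk2d* (35.8) and *Camkk2* (33.9), whose libraries overlap from each to the next, then *Ppp3ca* (28.9) and *Camkk1* (26), *Camk2b* (20) and *Camk4* (19.4), *Nrgn* (14.1) and *Camk2a* (11.5). *Camk2a* had the lowest density of the 9 and *Nrgn* the next, each with no overlap with its neighbour. In *Camk2a* H2B-FLAG tChIP-Seq *Camk2a* was first (55.9), apart from *Camk2b* (44.2), and was followed by *Camkk2* (41.3), *Camk4* (38.2), *Camkk1* (37.5), *Camk2g* (36.4) and *Nrgn* (36), each of which overlaps the next. *Ppp3ca* (31.9) and *Camk2d* (30.4) came last and overlap each other. The γ and δ subunits thus led in the ubiquitous line, and α and β in the line tagged through *Camk2a*.

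Single ChIP-Seq of *Rosa* H2B-FLAG mice gave a narrower spread, from *Camkk2* (42.7 CPM per kb), *Ppp3ca* (41.2) and *Camk2d* (39.6) through *Camk2g* (34.8), *Camk2b* (34.1), *Camkk1* (33.2) and *Nrgn* (30.8) to *Camk2a* (28.6) and *Camk4* (28.6). The first 3 overlap from each to the next, as do the following 3 and the last pair. In *Camk2a* H2B-FLAG single ChIP-Seq the order of the other 8 genes was nearly the same, while *Camk2a* stood at 41.1, level with *Camkk2* (41.1), *Camk2d* (39.4) and *Ppp3ca* (39.1). *Camk2b* (33.4), *Camk2g* (32.6), *Camkk1* (31.9) and *Nrgn* (30.4) followed, and *Camk4* (27.8) was lowest without overlap. *Camk2a* thus moved from the low end of the order to the top, while among the other 8 genes only neighbours whose libraries overlap exchanged places.

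Because *Camk2a* was the only one of the 9 genes called in single ChIP-Seq, the chromosome around it was examined. Within 500 kb on either side lie 16 other regions. In single ChIP-Seq, 2 of these were called higher in *Camk2a* H2B-FLAG mice, against 0.928% of all regions, and 0 lower by edgeR, against 1.22%. The 2 called higher are the nearest region on each side. With so few regions, the absence of lower calls says little. The region of *Arsi*, centred 13.6 kb before the first start of *Camk2a*, had 5.5, 7.06 and 6.38 CPM in *Rosa* H2B-FLAG and 23.1, 23.9 and 26.4 in *Camk2a* H2B-FLAG mice (log2 fold change 1.94, SE 0.145, adjusted p = 1.7e-26). That of *Slc6a7*, 87.4 kb after it, had 48.4, 43.6 and 47.4 against 78, 76.1 and 71 (0.70, SE 0.0697, adjusted p = 2.79e-16). The next regions outward, *Tcof1* at 76.9 kb before and *Pdgfrb* at 121.4 kb after, both had 0.02 (adjusted p = 0.938 and 0.9), and the median of the 16 was -0.01.

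The 3 regions that differ in whole cortex are thus consecutive on the chromosome, and *Camk2a* is the middle one. In tChIP-Seq 4 of the 16 were called higher, against 17.0% of all regions (*Arsi*, *Slc6a7* at 1.92, and the regions of *Synpo* at 1.18 and 0.76) and 3 lower, against 14.6% (*Pdgfrb* at -2.67, *2010002N04Rik* at -0.71 and a region without TSS at -1.59). For *Arsi* the line effect was not called different between the kinds of ChIP-Seq (interaction -0.45, adjusted p = 0.151), unlike *Camk2a* and *Slc6a7* (1.21, SE 0.129, adjusted p = 6.45e-17). The Cre transgene of this line uses a *Camk2a* promoter, and whether copies of this locus contribute counts was not tested.

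**Figure D3:**
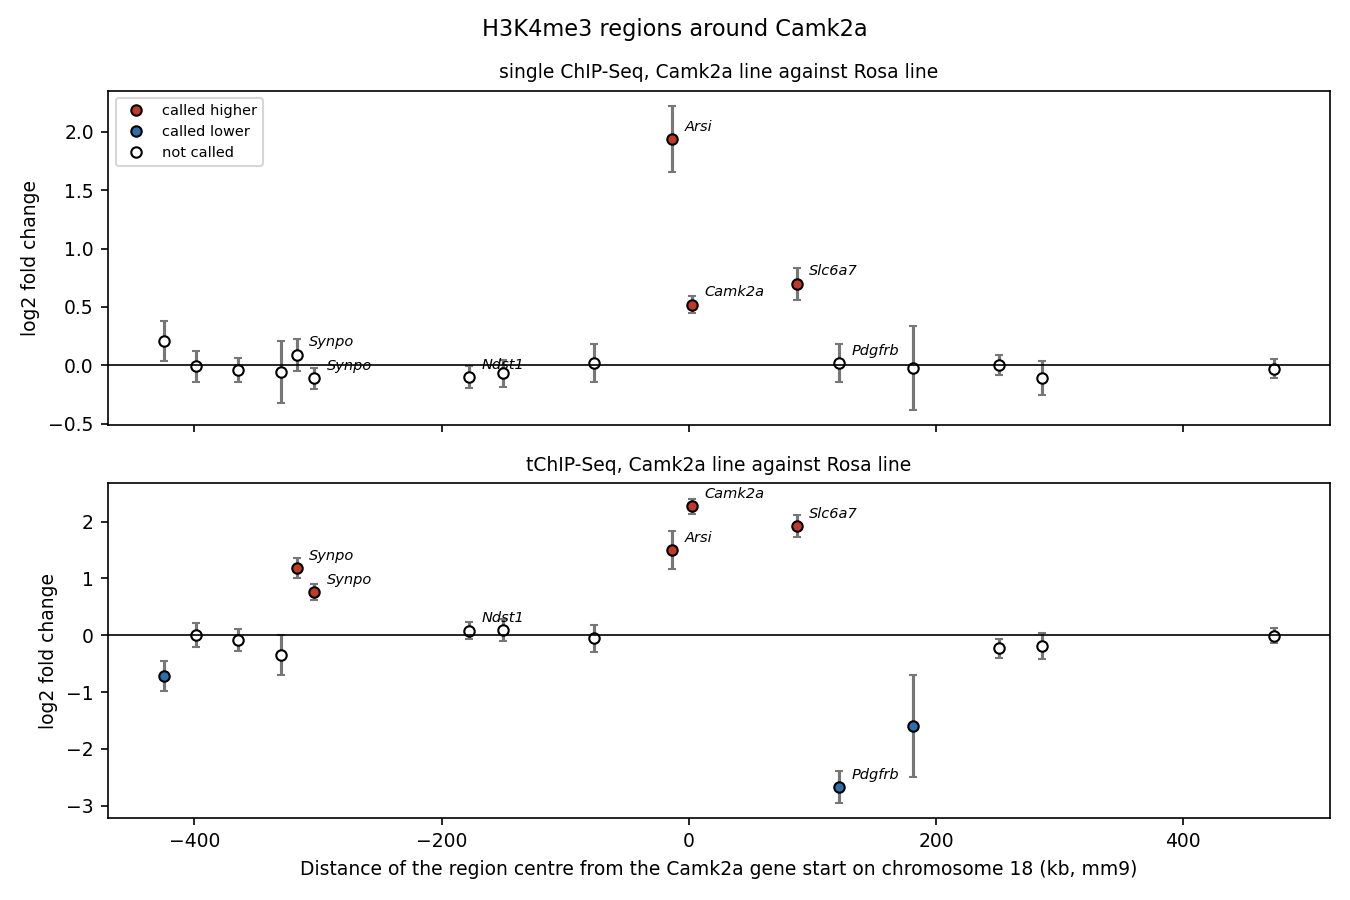
Line difference in single ChIP-Seq and tChIP-Seq for the regions within 500 kb of *Camk2a*, by distance from its first start site.

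Regions with a pattern over the 12 libraries like that of *Camk2a* were sought by Pearson correlation of log2 CPM among 5522 candidates. Candidates overlap a protein-coding TSS, have at least 100 counts in every library and lie over 500 kb from *Camk2a*. This floor leaves out regions with few counts in *Rosa* H2B-FLAG tChIP-Seq, such as that of *Slc17a7* (77, 67 and 60 counts there). The closest candidates included *A830092H15Rik* (r = 0.988), *Ube2ql1* (0.979), *Cit* (0.978) and *Lrfn5* (0.978). Of the closest 5 regions by Pearson correlation, 1 was among the closest 5 by Spearman correlation. *Nrgn* ranked 59th (r = 0.958) and *Camk2b* 83rd (0.951), *Camkk1* 308th (0.891), *Camkk2* 736th (0.727) and *Ppp3ca* 1501st (0.434). *Camk2g* (-0.266) and *Camk2d* (-0.275) had weak negative correlations with *Camk2a*, and *Camk4* had fewer than 100 counts in a library and was not ranked. The 12 points share line, kind and depth, so these values describe the group pattern only.

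The other genes of the pathway, listed from general knowledge, number 48, and 47 of them have a region at a TSS (*Pcp4* has none). In tChIP-Seq, 25 were called higher in *Camk2a* H2B-FLAG mice, against 17.0% of all regions, and 6 lower, against 14.6%, with a median of 0.31 and values from -1.38 to 1.45. In single ChIP-Seq 1 was higher and 2 lower (0.928% and 1.22% of all regions), and the interaction was above 0 for 25 and below 0 for 6 (13.7% and 13.2%). After purification 30 were lower and 10 higher in *Rosa* H2B-FLAG mice (22.5% and 24.7%), and 13 were lower and 20 higher in *Camk2a* H2B-FLAG mice (22.6% and 25.3%). Between the lines in tChIP-Seq, the share of these genes called higher was thus above that of all regions and the share called lower near it.

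*Calm3* and *Calm2* encode calmodulin itself, with the same protein sequence, and both were called higher in tChIP-Seq. *Calm3* had 169.6, 168.2 and 185 CPM in *Rosa* H2B-FLAG and 223.4, 230.9 and 233.9 in *Camk2a* H2B-FLAG tChIP-Seq (log2 fold change 0.41, SE 0.0589, adjusted p = 1.08e-08). *Calm2* had 156, 167 and 147.6 against 200.5, 192 and 214 (0.37, SE 0.0631, adjusted p = 7.65e-07). Neither pair of groups overlaps, and both differences are smaller than those of *Camk2a*, *Camk2b*, *Camk4* and *Nrgn*.

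Among 10 other CaM kinases and relatives, 3 were called higher in tChIP-Seq and 0 lower by edgeR, against 17.0% and 14.6% of all regions, with 6 higher and 0 lower at an unadjusted p below 0.05 and 3 and 0 by DESeq2. *Camk1g*, CaM kinase Iγ and so a substrate of the kinase kinases, rose from 31.3, 26.8 and 28.2 CPM to 77.1, 76.9 and 83.2 (1.45, SE 0.118, adjusted p = 2.03e-18). *Camkv*, a pseudokinase of synaptic vesicles, had 49.6, 56.1 and 43.3 against 117.1, 104.6 and 106.5 (1.14, SE 0.0971, adjusted p = 1.45e-17). The groups stand apart at both genes, and *Camk1d* had a smaller difference (0.37, SE 0.0728, adjusted p = 1.52e-05). *Dclk1*, a doublecortin-like kinase, has 2 TSS regions that differ: the one with most counts had 0.09 (adjusted p = 0.399) and the upstream one 1.05 (SE 0.0941, adjusted p = 1.81e-16).

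Both genes for inhibitors of CaMKII have a region at a TSS. *Camk2n1* had 182.6, 195 and 221.8 CPM against 210.9, 236.4 and 233.9 in tChIP-Seq, and although the libraries overlap it was called (0.20, SE 0.0602, adjusted p = 0.0054). The call was lost with DESeq2 (0.0521) and when replicate 2 (0.039) or 3 (0.0321) of the *Camk2a* H2B-FLAG or replicate 1 (0.127) or 2 (0.0269) of the *Rosa* H2B-FLAG libraries was left out, its 11 alternatives running from 0.000464 to 0.127. *Camk2n2* had 0.17 and was not called (adjusted p = 0.0439).

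The calcineurin arm divided. The other catalytic subunits *Ppp3cb* (0.04, adjusted p = 0.759) and *Ppp3cc* (-0.07, adjusted p = 0.659) and the regulatory subunit *Ppp3r1* (-0.16, adjusted p = 0.0577) were not called in tChIP-Seq, like *Ppp3ca*. *Rcan3*, of the family of calcineurin regulators, was lower, with 53.2, 60.2 and 55.8 CPM in *Rosa* H2B-FLAG and 23.9, 23.5 and 16.6 in *Camk2a* H2B-FLAG mice (-1.38, SE 0.138, adjusted p = 1.77e-14), the lowest value of the 47 genes. Its relatives were called on the other side: *Rcan2* at 0.39 (SE 0.103, adjusted p = 0.00122) and *Rcan1* at 0.31 (SE 0.0948, adjusted p = 0.00575). Both of these calls depend on single libraries. *Rcan2* was lost with DESeq2 (0.0165) and when replicate 1 of the *Camk2a* H2B-FLAG (0.0277) or replicate 2 of the *Rosa* H2B-FLAG libraries (0.0163) was left out (0.000689 to 0.0277 over 11 alternatives). *Rcan1* was lost with DESeq2 (0.0475), with the replicate number as a block (0.0103), without replicate 1 (0.0334) or 3 (0.0169) of the *Camk2a* H2B-FLAG and without replicate 1 (0.115) or 3 (0.0131) of the *Rosa* H2B-FLAG libraries (0.00302 to 0.115 over 11 alternatives). A second TSS region of *Rcan1* had means of 26 CPM in *Rosa* H2B-FLAG and 22.3 in *Camk2a* H2B-FLAG tChIP-Seq, and that of *Rcan2* 26.5 and 37.9.

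Other proteins that carry an IQ motif, as neurogranin does, also went both ways. *Gap43*, which binds calmodulin in axons, had 39.1, 31 and 47.2 CPM against 90.9, 97.4 and 87.3 in tChIP-Seq (1.25, SE 0.109, adjusted p = 7.46e-17), close to the value at *Nrgn*. *Pcp4l1* had 62.6, 62.6 and 89.9 against 41.7, 33.6 and 42.4 (-0.84, SE 0.118, adjusted p = 3.81e-09). The groups do not overlap at either of these regions. A second TSS region of *Gap43*, low in level, had means of 9.09 CPM in *Rosa* H2B-FLAG and 8.54 in *Camk2a* H2B-FLAG tChIP-Seq, and its libraries overlap.

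All 8 calmodulin-dependent enzymes were called in tChIP-Seq, 6 higher and 2 lower, against 17.0% and 14.6% of all regions. Highest were the phosphodiesterase *Pde1a* (1.45, SE 0.111, adjusted p = 9.59e-20), the adenylyl cyclases *Adcy1* (0.98, SE 0.0757, adjusted p = 1.37e-19) and *Adcy8* (0.96, SE 0.0719, adjusted p = 3.37e-20), and the nitric oxide synthase *Nos1* (0.97, SE 0.158, adjusted p = 2.9e-07). At *Pde1a* the libraries gave 37, 35.8 and 29.5 CPM against 86, 96.7 and 98.7. *Nos1* is low in level, with 20.3, 19.1 and 19.7 against 40.7, 42.2 and 32, and still without overlap. The phosphodiesterase *Pde1c* (-0.94, SE 0.217, adjusted p = 0.000201) and the inositol trisphosphate kinase *Itpkb* (-0.83, SE 0.0767, adjusted p = 6.26e-16) were lower and, with *Pde1b* (0.69) and *Itpka* (0.70), are named after their values were seen. *Pde1c* was lost when replicate 1 of the *Rosa* H2B-FLAG libraries was left out (adjusted p = 0.0131; 2.06e-05 to 0.0131 over 11 alternatives). Paralogues of both families thus lay on opposite sides, *Pde1a* and *Pde1b* against *Pde1c*, and *Itpka* against *Itpkb*.

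The calmodulin-binding exchange factors *Rasgrf1* (0.98, SE 0.114, adjusted p = 7.17e-12) and *Rasgrf2* (0.97, SE 0.103, adjusted p = 1.99e-13), which link calcium to Ras, were both called higher in tChIP-Seq. At *Rasgrf1* the libraries had 37, 36.4 and 38.1 CPM against 75.8, 77.2 and 65.9, and at *Rasgrf2* 46.4, 50.1 and 44.6 against 83.7, 92.7 and 100.9. Neither pair of groups overlaps. All 5 neuronal calcium sensors related to calmodulin were called higher as well, against 17.0% of all regions, led by *Hpca* (hippocalcin) at 1.42 (SE 0.0888, adjusted p = 2.18e-24) and *Caln1* at 1.39 (SE 0.0957, adjusted p = 3.7e-22), then *Vsnl1* at 1.16 (SE 0.0907, adjusted p = 2.97e-19) and *Cabp1* at 0.72 (SE 0.0728, adjusted p = 3.23e-14). The smallest was *Ncald* at 0.67 (SE 0.118, adjusted p = 1.55e-06), whose 2 other TSS regions were not called (0.23 and 0.84, adjusted p = 0.0465 and 0.0563). *Hpca* had 58.4, 54.3 and 47.2 CPM against 145, 148.7 and 135.9. The values at *Hpca*, *Caln1* and *Vsnl1* are near those at *Nrgn* and *Camk2b*.

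Of 9 nuclear targets of the kinases and of calcineurin, 3 were called higher in tChIP-Seq, 2 lower and 4 not, where 17.0% and 14.6% of all regions were called higher and lower. With so few genes, these counts do not set the targets apart from other regions. The lower ones are *Nfatc4* (-0.93, SE 0.18, adjusted p = 1.12e-05) and *Nfatc1* (-0.80, SE 0.101, adjusted p = 1.37e-10), transcription factors that calcineurin activates. *Nfatc1* had 86.1, 76.9 and 82.7 CPM against 47.9, 45.1 and 47.5, without overlap, and a second TSS region of it had means of 76 against 60.5. *Mef2c* (0.49, SE 0.106, adjusted p = 8.9e-05) and the CREB coactivator *Crtc1* (0.43, SE 0.108, adjusted p = 0.000647) were higher, *Crtc1* missing the threshold with DESeq2 (adjusted p = 0.0101; 0.000588 to 0.0101 over 11 alternatives). *Creb1* itself was not called (adjusted p = 0.127).

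**Figure D4:**
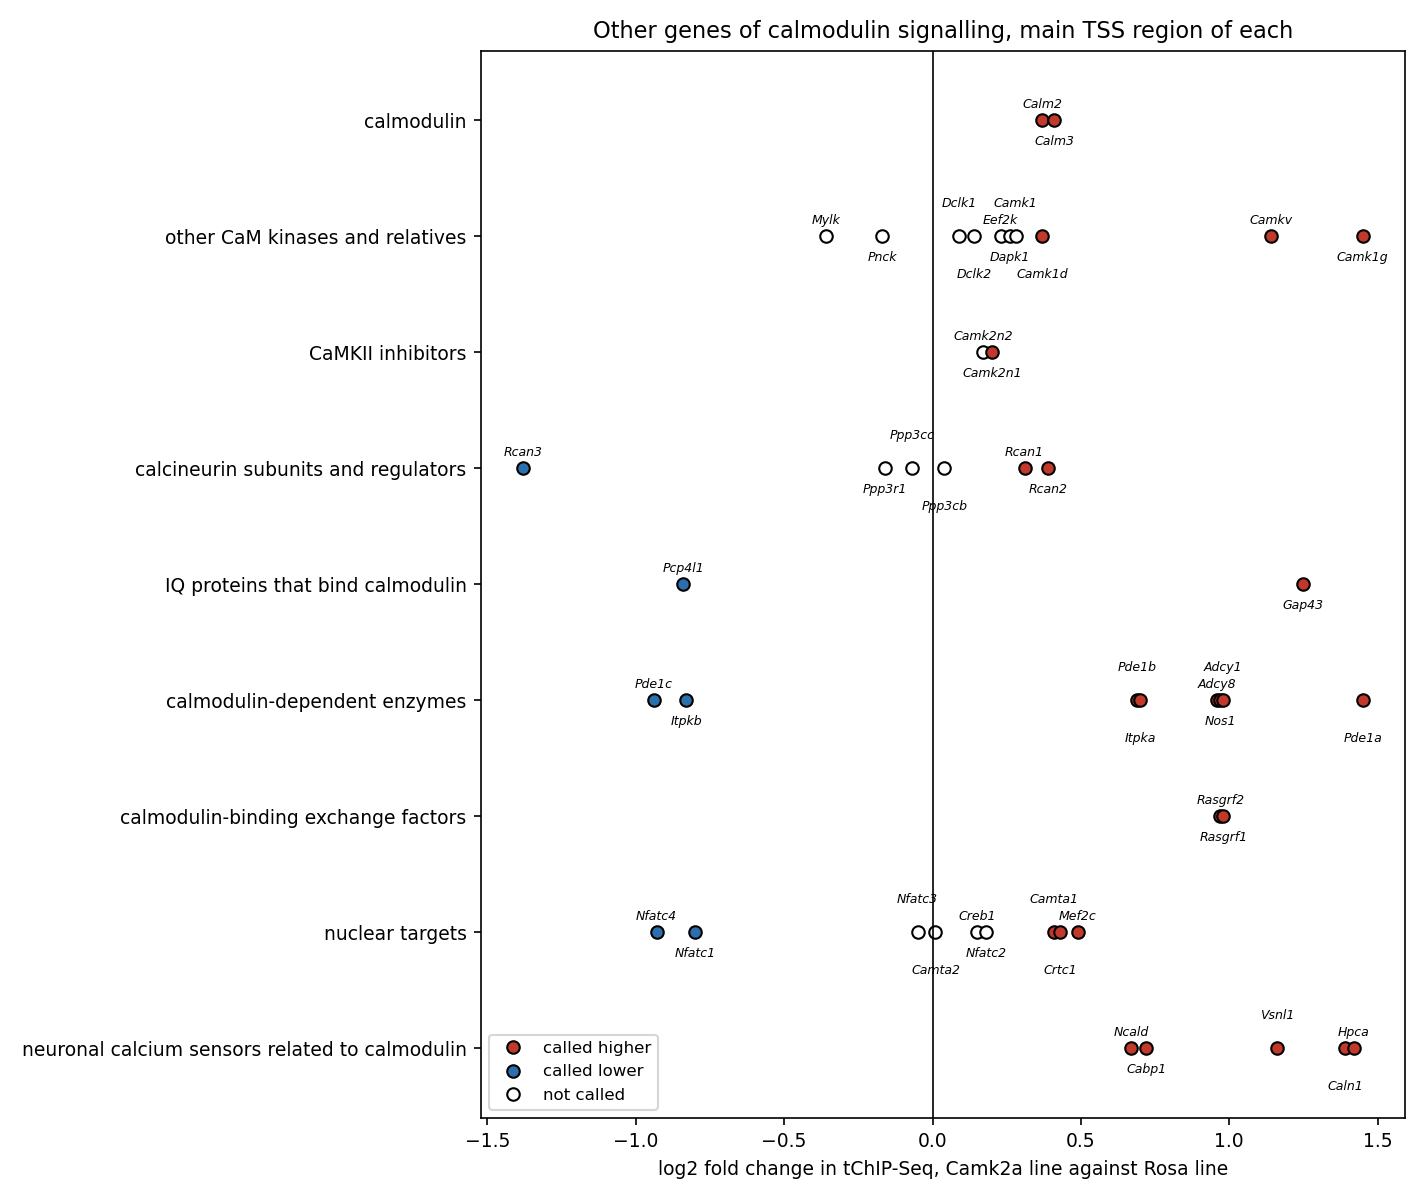
Line difference in tChIP-Seq for other genes of the pathway, grouped by role.

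Cell type markers were read beside these values. In tChIP-Seq of *Rosa* H2B-FLAG mice, the excitatory neuron markers *Slc17a7*, *Neurod6* and *Neurod2* summed to 167, 159.2 and 149.6 CPM, and in that of *Camk2a* H2B-FLAG mice to 417, 435.6 and 433.6, with *Neurod2* the most abundant (*Tbr1* has no region). In single ChIP-Seq they summed to 321, 330.8 and 315.6 against 341.7, 325.5 and 325.7. The sums thus overlap before purification and differ after it, like those of *Camk2b*, *Camk4* and *Nrgn*. The 4 of 5 markers of inhibitory neurons (none for *Slc32a1*; *Gad1* most abundant) had 110.1, 110.9 and 94.5 in *Rosa* H2B-FLAG and 56.1, 54.1 and 52.3 in *Camk2a* H2B-FLAG tChIP-Seq. In single ChIP-Seq these were 80.7, 77.8 and 78.5 against 71.9, 80.6 and 84.

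Markers of astrocytes (4 of 5, none for *Gfap*, *Slc1a3* most abundant) summed in tChIP-Seq to 204.5, 238.6 and 248.7 CPM in *Rosa* H2B-FLAG and 56.1, 56.3 and 52.7 in *Camk2a* H2B-FLAG mice, and in single ChIP-Seq to 163.1, 168.5 and 165.7 against 180.2, 178 and 154. Those of endothelial cells (4 of 5, none for *Cldn5*, *Flt1* most abundant) summed to 171.7, 177.1 and 173.9 against 38.7, 33.2 and 43.8 in tChIP-Seq, and to 141.5, 144.6 and 129.9 against 146.7, 137.7 and 138.6 in single ChIP-Seq. In *Rosa* H2B-FLAG mice both lists were above their single ChIP-Seq sums after purification, where 7 of the 9 CaM kinase and calmodulin genes were called lower. Oligodendrocyte markers (4 of 5, none for *Sox10*, *Mbp* most abundant over the 12 libraries) gave 136.2, 145.5 and 138.4 against 144.7, 158.8 and 149.2 in tChIP-Seq, and 181.6, 173.8 and 177.8 against 167.6, 165.4 and 156.5 in single ChIP-Seq. Of these 4, 1 was called higher between the lines in tChIP-Seq (*Mbp*, 1.18) and 3 lower, so the sum covers opposite changes. A second region of *Mbp*, not in the sum, had -1.34. None of the 5 microglial markers has a region, and the part of these cell types in the differences at the 9 genes was not tested.

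In base composition the 9 regions do not form a uniform group. The ratio of observed to expected CpG was 0.22 at *Camk2a* and 0.30 at *Nrgn*, lower than at all but 2.58% and 6.68% of the regions. It was 0.46 at *Camk2g*, 0.51 at *Camkk1*, 0.57 at *Camk4*, 0.62 at *Camk2b*, 0.66 at *Camkk2*, 0.69 at *Ppp3ca* and 0.75 at *Camk2d*, around a median of 0.58 over all regions. The GC content ran from 49.0% at *Nrgn* to 63.0% at *Camk2b* (median of all regions 53.8%). The genes with the lowest CpG ratios, *Camk2a* and *Nrgn*, are those with the largest line difference in tChIP-Seq, and *Camk2d*, with the highest, is the one with a negative difference. Between these ends the order did not hold: *Camk2g* (ratio 0.46) had a line difference of 0.00 and *Camk2b* (0.62) one of 1.14. A part of base composition in these differences was not tested. Every one of the 9 regions is wider than the median of 1774 bp, the narrowest being that of *Camkk2* at 2265 bp.

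Promoter sequences from RefSeq (GRCm38.p6, 250 bases before to 50 after the start) were available for 5 of the 9 genes: *Camk2b*, *Camk2d*, *Camkk1*, *Camkk2* and *Nrgn*. Each matched mm9 at a single place that lies wholly inside the region counted for the gene. Of these, 3 are printed 5′ to 3′ because they show the range of the set: *Nrgn* and *Camk2b* with the largest line differences in tChIP-Seq among the 5, and *Camk2d* with the opposite sign. Capitals mark matches on either strand to the GC box GGGCGG, the CCAAT box (CCAAT), the core TGACG of a cAMP response element, or the TATA box TATAAA.

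In mm9 coordinates these are *Nrgn* at chr9:37360281-37360580 (minus strand), *Camk2b* at chr11:5965702-5966001 (minus strand) and *Camk2d* at chr3:126299619-126299918 (plus strand).

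Nrgn: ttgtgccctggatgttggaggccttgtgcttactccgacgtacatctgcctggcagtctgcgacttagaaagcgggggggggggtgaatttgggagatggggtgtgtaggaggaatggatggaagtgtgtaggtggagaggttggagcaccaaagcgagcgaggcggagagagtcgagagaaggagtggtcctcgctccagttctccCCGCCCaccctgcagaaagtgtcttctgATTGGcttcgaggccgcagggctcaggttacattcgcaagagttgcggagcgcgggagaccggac

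Camk2b: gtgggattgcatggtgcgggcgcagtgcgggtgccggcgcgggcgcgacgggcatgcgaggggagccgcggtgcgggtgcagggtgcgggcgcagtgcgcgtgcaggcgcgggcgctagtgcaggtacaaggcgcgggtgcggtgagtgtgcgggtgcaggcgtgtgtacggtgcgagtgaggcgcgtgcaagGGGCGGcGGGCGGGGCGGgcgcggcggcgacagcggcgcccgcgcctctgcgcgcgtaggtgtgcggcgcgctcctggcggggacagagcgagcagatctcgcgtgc

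Camk2d: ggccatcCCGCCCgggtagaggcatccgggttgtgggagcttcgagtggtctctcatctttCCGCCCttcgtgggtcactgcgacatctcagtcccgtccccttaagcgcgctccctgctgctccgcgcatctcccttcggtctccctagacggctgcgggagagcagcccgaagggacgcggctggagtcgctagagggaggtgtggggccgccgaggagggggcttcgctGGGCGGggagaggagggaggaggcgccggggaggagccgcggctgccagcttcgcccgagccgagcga

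The GC box occurs 3 times in the promoter of *Camk2b*, 3 times in that of *Camk2d*, 3 times in that of *Camkk1*, and 1 time each in those of *Camkk2* and *Nrgn*, while 35.7% of 32851 promoters of the table hold it. A CCAAT box is in the promoters of *Camkk1* (2 matches), *Camkk2* (1) and *Nrgn* (1) and in 37.4% of all, and the core TGACG only in that of *Camkk1* (1 match; 20.8% of all). None of the 5 holds TATAAA, which 13.6% of all promoters do. A match is a description and not a site of binding, and the absence of one says only that these letters are not in the window. GC content over the 300 bases was 59.3% at *Nrgn*, below 70.3% at *Camk2d*, 73.3% at *Camkk2*, 75.3% at *Camkk1* and 77.3% at *Camk2b*. The motifs thus do not separate *Nrgn* and *Camk2b*, which were higher in the *Camk2a* H2B-FLAG line, from *Camk2d*, which was not.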

How the data were processed

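Submitters' processing notes name bcl2fastq 1.8.4, Bowtie2 2.1.0, Bowtie 1.0.0, SAMtools 0.1.19 and bedtools 2.17.0, with reads mapped to mm9. The deposited values are whole numbers, taken as read counts per region that the authors made without normalization, for 12 H3K4me3 libraries on the same 17993 regions; the other 12 libraries of the series (input and FLAG) hold no such counts and were not used. Regions were assigned to genes by overlap with a TSS (GENCODE M1), the region with most counts being a gene's main one. Every member is named; of each pathway group, up to 4 genes called between the lines in tChIP-Seq with the largest change and libraries that do not overlap. Other pathway genes named (*Camk2n1*, *Camk2n2*, *Ppp3cb*, *Ppp3cc*, *Ppp3r1*, *Creb1*, *Dclk1*, *Pde1b*, *Pde1c*, *Itpka*, *Itpkb*, *Ncald*) were chosen after their values were seen. Some results are not reported here. The members and lists were chosen with earlier results of these data known.

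All regions were tested without a filter by edgeR 4.0.16 (quasi-likelihood, TMM, Benjamini-Hochberg, R 4.3.3), 3 libraries against 3, or all 12 for the interaction. Alternatives were DESeq2 1.42.0 (Wald test), its size factors, a minimum of 10 counts, 1 fit of all 12 libraries, single ChIP-Seq thinned to tChIP-Seq depth, a replicate block, a threshold of 0.05, TSS within 1000 bp, and leaving out each library. Total counts ranged from 1457261 to 8644574 per library, and recovery of known changes at these depths was tested on simulated data. Python 3.11.15, pandas 2.3.3, numpy 2.4.6, scipy 1.17.1 and matplotlib 3.10.9 served for the rest.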

Additional observations from a re-analysis of the deposited data

Results flagged for a closer look

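The line effect (*Camk2a* H2B-FLAG against *Rosa* H2B-FLAG) differed between tChIP-Seq and single ChIP-Seq at 7 of the 9 genes, against 13.7% of all regions above 0 and 13.2% below 0, which is a difference between groups tested by the interaction over 12 libraries. On the log2 scale it was larger in tChIP-Seq by 1.74 at *Camk2a*, 1.36 at *Nrgn*, 1.17 at *Camk2b*, 1.01 at *Camk4*, 0.58 at *Camkk1*, 0.34 at *Camkk2* and 0.22 at *Ppp3ca*. The calls at *Camkk2* and *Ppp3ca* are lost with DESeq2 and when some of the libraries are left out. The cause of these differences was not tested.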

How the results depend on the processing

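Of 621 log2 fold changes of the 9 genes under the alternatives, 566 kept both their direction and their side of the threshold, 32 lost the call, 6 gained it and 17 changed sign, all of the 17 at values that were not called. No scaling moved the median of all regions by more than 0.05. Within a line the titles give both kinds of ChIP-Seq the same replicate numbers, but no label or method says what a number shares, so no pairing was used. Between differences of libraries with the same number, correlations ran from -0.005 to 0.028 and from -0.016 to -0.001 for the lines in single ChIP-Seq and tChIP-Seq, and from 0.006 to 0.040 and from 0.004 to 0.039 for the kinds in the *Rosa* H2B-FLAG and in the *Camk2a* H2B-FLAG line. The replicate block changed no count of the 9 genes and took the pathway genes called higher in tChIP-Seq from 25 to 24.

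Between the lines in tChIP-Seq, the count of the 9 genes called lower went from 0 to 1 with all 12 libraries in 1 fit and at a threshold of 0.05, and lay between 0 and 1 when each library was left out. In the interaction it went from 0 to 1 at 0.05. In single ChIP-Seq between the lines, 1 pathway gene was higher and 2 lower. The higher count was 0 with DESeq2, with 12 libraries in 1 fit, with thinned counts and without any library (0 to 0), and 2 at 0.05. The lower count was 0 with DESeq2 and thinned counts, 1 with at least 10 counts, and 0 to 1 when each library was left out. All regions called there went from 167 higher and 219 lower to 27 and 7 with DESeq2, 19 and 9 with thinned counts, and 522 and 669 at 0.05, and to 69 to 131 higher and 49 to 165 lower when each library was left out. On purification in *Rosa* H2B-FLAG mice, 10 pathway genes called higher became 6 with DESeq2, 5 with thinned counts and 6 to 10 when each library was left out. In *Camk2a* H2B-FLAG mice, 4058 regions called lower became 2414 with DESeq2. Of the 5 regions most like *Camk2a*, 1 was shared with Spearman correlation. The cause was not tested, except that thinned or left-out libraries leave fewer counts.

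Signs changed at these values near 0. *Camk2g* between the lines in tChIP-Seq had 0.00, and -0.00 with DESeq2 and with its size factors, -0.01 with 12 libraries in 1 fit, and -0.04 to 0.06 when each library was left out. Between the lines in single ChIP-Seq, thinned counts gave 0.00 at *Camk2b*, 0.01 at *Camk2d* and 0.01 at *Nrgn*, and leaving out each library gave -0.05 to 0.02 at *Camk2d* and -0.04 to 0.01 at *Nrgn*. *Camkk2* on purification in *Camk2a* H2B-FLAG mice had -0.01 with thinned counts and -0.04 to 0.07 when each library was left out. The cause of these changes was not tested. Depth limits small differences, and total counts are lowest in *Rosa* H2B-FLAG tChIP-Seq.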
